A study of Mus musculus with 6 samples.

Results

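Mitochondrial complex I genes of the nuclear genome were followed here in GC-2spd cells under normoxia and hypoxia. Members were chosen by symbol: Nduf followed by a, b, c, s or v and a number for subunits, and Ndufaf and a number for assembly factors, without pseudogenes and without Ndufa4 and Ndufa4l2. This gave 43 of the 43412 annotated genes in the files, 35 subunits and 8 assembly factors (Ndufaf1 to Ndufaf8), and all 43 reached the minimum for testing, a mean of 1 TPM over the 6 libraries. Ndufa11b, Ndufb4c and Ndufs6b match the pattern but are annotated as processed pseudogenes and were set aside. Ndufab1 carries a symbol outside the pattern.

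Complex I, the NADH:ubiquinone oxidoreductase, is the largest enzyme of the respiratory chain. It takes electrons from NADH in its matrix arm, passes them along a row of iron-sulfur clusters to ubiquinone, and pumps protons through its membrane arm. The N module at the tip of the matrix arm oxidizes NADH, the Q module below it reduces ubiquinone, and the membrane arm holds the proton-pumping subunits, which are encoded by mitochondrial DNA and surrounded by nuclear-encoded subunits. Assembly factors help to build these modules and are not part of the finished enzyme.

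Poly(A)-enriched RNA was sequenced from GC-2spd cells, a mouse germ cell line labelled as derived from testis with the strain background C57BL/6J. The normoxic group (n = 3) was cultured at 21% O2 and the hypoxic group (n = 3) at 1% O2, both in DMEM with fetal bovine serum and antibiotics. Hypoxic culture of this cell model lasted 48 h, a duration that is not stated for the RNA libraries themselves. The labels do not say whether the replicates came from separate cultures, so the p-values measure the spread between these libraries, which may be technical. All of the samples are 1 cell line, with no primary germ cells beside it.

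Each library held 5.75 to 6.72 gigabases of aligned sequence, and 13749 genes were tested. Vegfa, Slc2a1, Pdk1 and Egln3, classical targets of the hypoxia response, were all called higher in hypoxia (4 of 4, median log2 fold change 2.01). None of 9 spermatocyte markers and none of 7 spermatid markers reached the minimum for testing, and Sycp1, Stra8 and Hormad1 of the first list and Prm2, Tnp1, Acr and Spaca1 of the second were listed at 0 in every library, so the defining markers of the labelled germ cell stage were absent or near 0. Of 6 fibroblast and myoid cell markers, 5 were tested, and their summed level was 2283 to 2352 TPM in normoxia and 2721 to 2976 TPM in hypoxia, mostly Col1a1 and Col1a2. Of these markers Col1a1 was called higher (0.57) and Pdgfra lower (-1.24), Col1a2, Col3a1 and Acta2 were not called, and Thy1 was listed at 0. Summed markers of Sertoli cells, Leydig cells and macrophages were low but higher in every hypoxic library, at 9.81 to 11.4, 3.61 to 6.88 and 7.20 to 8.11 TPM in normoxia and 15.4 to 17.6, 7.17 to 10.6 and 10.5 to 11.5 TPM in hypoxia, with Sox9, Insl3 and Cd68 called higher (1 of 5, 1 of 5 and 1 of 4 markers). Within the Sertoli list only Sox9 rose, while Amh, Dhh, Rhox5 and Cldn11 had lower means in hypoxia. In the Leydig list only Insl3 rose, while Star, Cyp11a1 and Cyp17a1 had lower means. Among those with lower means only Rhox5 and Star were tested, and neither was called. Csf1r of the macrophage list had a higher mean and was not called. Of the defining markers, Hsd3b1, Adgre1 and Ptprc were listed at 0, and the 4 endothelial markers summed to at most 2.11 TPM. The part of these marker levels in the results below was not tested.

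The question was how the nuclear complex I mRNAs differed between the 2 groups, and whether subunits and assembly factors differed alike. Values are TPM, a gene's share of all transcripts after scaling for transcript length, and fold changes are on the log2(TPM + 1) scale, hypoxia over normoxia. A gene is called higher or lower at an adjusted p under 0.05 by limma with Benjamini-Hochberg adjustment over all tested genes. TPM is a share of the RNA in a library, so less of an mRNA per cell and fewer cells carrying it cannot be told apart.

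Most complex I mRNAs were lower in hypoxia. Of the 35 subunits, 20 fell (57.1%), 1 rose and 14 were not called, with a median log2 fold change of -0.27. Of the 8 assembly factors, 7 fell and 1 was not called, with a median of -0.51. Over all tested genes 36.1% were called lower and 17.9% higher, and the median was -0.13. Of the tested protein-coding genes alone, 40.1% were called lower and 17.8% higher, with a median of -0.16. The 3 hypoxic libraries lay below all 3 normoxic libraries for 21 subunits and 7 assembly factors, beside 41.0% of all tested genes. The only member that rose was Ndufv3.

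How far these counts stand above the background depended on the scaling of the libraries. When the libraries were scaled to a common median ratio, which brings the median of all tested genes from -0.13 to 0.0014, 11 subunits were called lower (31.4%) and 4 higher (11.4%), beside 26.3% and 26.2% of all tested genes. The subunits' share of lower calls was then close to that of all genes. It was closer still to that of the tested protein-coding genes, of which 29.4% were called lower and 26.7% higher. The assembly factors had 5 lower calls of 8 and a median of -0.37 under this scaling, and the subunits a median of -0.12. Both medians were negative under each scaling.

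**Figure D1:**
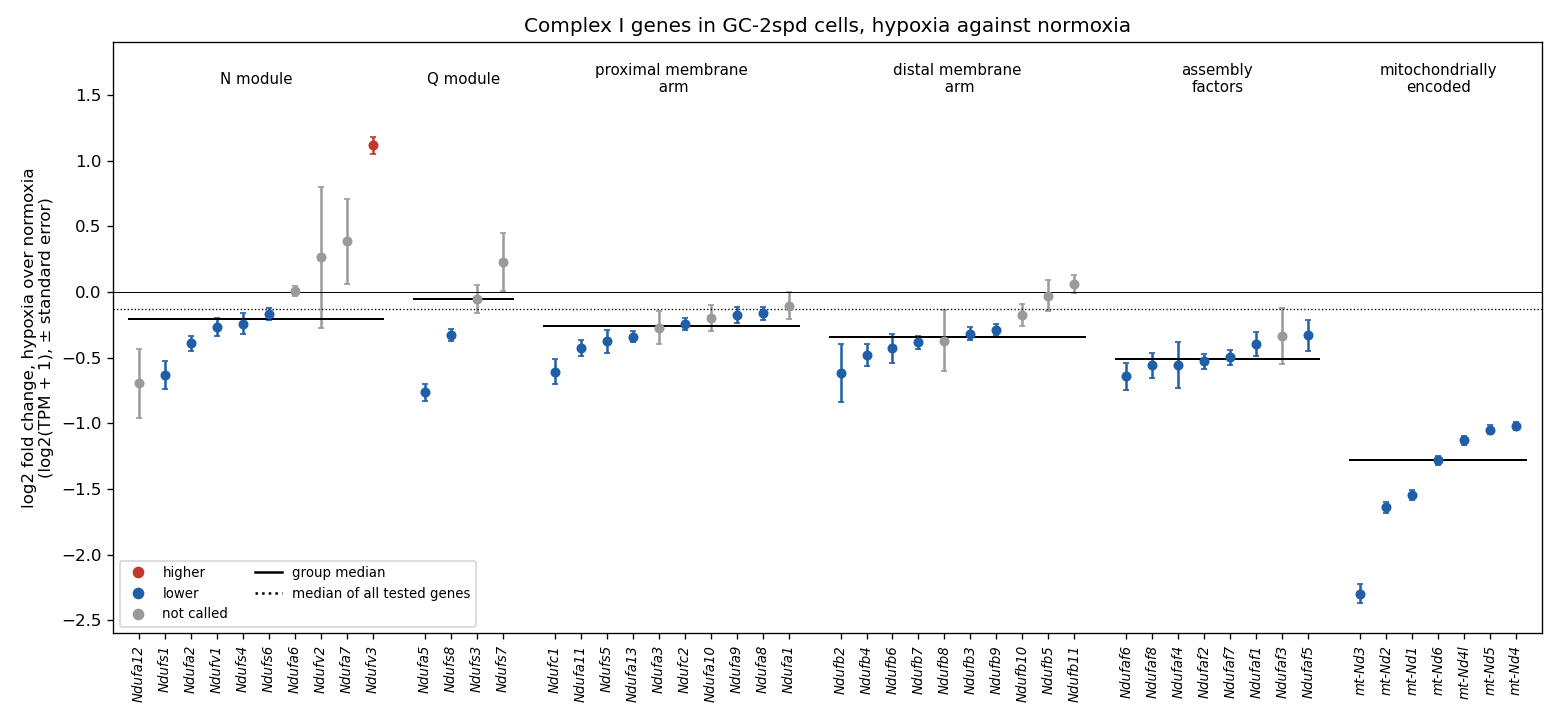
Log2 fold change, hypoxia over normoxia, of each complex I gene on the log2(TPM + 1) scale (points, bars show ± 1 standard error, n = 3 libraries a group), arranged by module, with the mitochondrially encoded subunits at the right and horizontal lines for the medians over all members of a module. 1 subunit is not drawn. Ndufv3 stands alone at 1.12, the 8 assembly factors lie between -0.64 and -0.33, and the mitochondrially encoded subunits lie at or below -1.02.

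Summed over genes, the 35 nuclear subunits gave 4304, 4047 and 4182 TPM in the normoxic libraries and 3839, 3752 and 3718 TPM in the hypoxic ones. The hypoxic sum was 90.2% of the normoxic sum, and the groups did not overlap. By the same unscaled TPM the typical tested gene was lower too, with a median of -0.13 on the log2 scale. No sums were computed under the median-ratio scaling, so whether the subunit sum fell further than the typical gene was not tested. The subunit sum also holds the rise of Ndufv3 and the uneven values of Ndufv2, Ndufa7, Ndufs7 and Ndufa12 given below. The assembly factors were far less abundant, with sums of 232, 222 and 220 TPM in normoxia and 160, 159 and 153 TPM in hypoxia, or 70.3% of the normoxic level. Relative to the subunits, the assembly factor sum went from 5.37% ± 0.117 to 4.18% ± 0.0622 (SD, n = 3 in each group). The difference between the median fold changes of subunits and assembly factors, 0.25 on the log2 scale, is a description, since genes are not replicates of a condition, and it was 0.13 after quantile normalization.

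**Figure D2:**
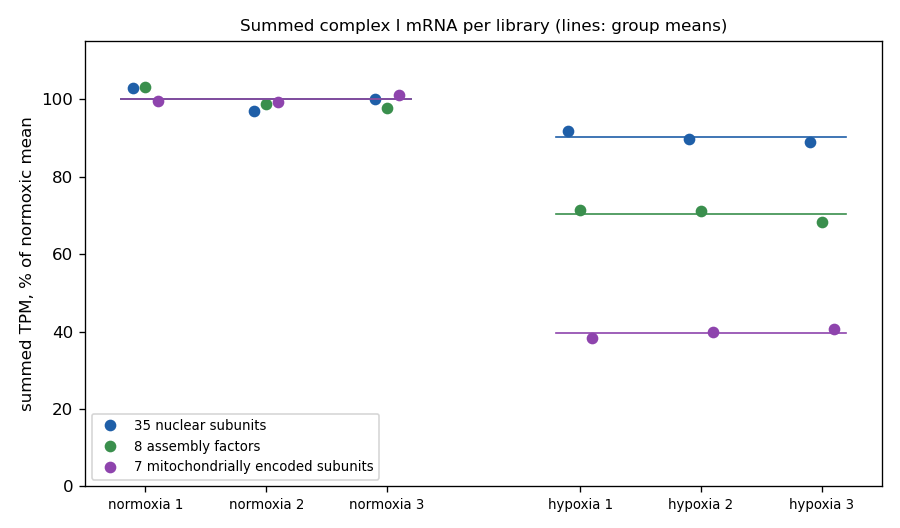
Summed TPM of the 35 nuclear subunits, the 8 assembly factors and the 7 mitochondrially encoded subunits in each library, as a percentage of the mean of the normoxic libraries (points, libraries; lines, group means). In hypoxia the means stood at 90.2%, 70.3% and 39.5% of normoxia, and within each set no hypoxic library reached a normoxic one. The sums are of unscaled TPM, by which the median over all tested genes was also negative, and were not computed under the median-ratio scaling.

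Ndufv3 encodes a small accessory subunit of the N module that lies beside the NADH-binding subunit Ndufv1. Its mRNA was at 104, 93.2 and 107 TPM in normoxia and at 233, 219 and 210 TPM in hypoxia. Every hypoxic library was far above every normoxic one, a mean 2.18 times as high (log2 fold change 1.12, SE 0.0662, limma adjusted p = 3.03e-05). Only 2.16% of the tested genes had a larger increase. Ndufv3 made up 8.005% ± 0.476 of the summed TPM of the 10 N module genes in normoxia and 17.2% ± 0.467 in hypoxia (SD, n = 3). This sum includes Ndufv2, Ndufa7 and Ndufa12, whose TPM varied strongly between libraries of 1 group. Its ratio to Ndufv1 went from 0.751 ± 0.101 to 1.96 ± 0.0910.

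The gene lies at chr17:31520115-31531326 on the plus strand of mm10 and has 5 annotated transcripts, which include a short and a long form that differ by 1 internal exon. The values are per gene, so they do not tell which form was measured. Of all tested genes, those close in pattern over the 6 libraries included Gm8250, Cir1, Gm16470 and Lgals3, with Pearson's r of log2(TPM + 1) between 0.999 and 1.000. These correlations are a description over libraries that fall into 2 groups, and Gm8250 and Gm16470 were near the minimum level in normoxia, at 1.16 and 1.44 TPM.

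Of the other N module genes, 5 fell, among them the core subunits Ndufs1 and Ndufv1. That was 50% of the 10 N module genes, beside 36.1% of all tested genes. Under the median-ratio scaling 20% of the module was called lower and 20% higher, beside 26.3% and 26.2% of all tested genes. Ndufs1, the largest subunit, which carries several iron-sulfur clusters, was at 72.8, 71.0 and 69.3 TPM in normoxia and at 47.98, 38.0 and 51.2 TPM in hypoxia (log2 fold change -0.63, limma adjusted p = 0.00246). Its gene overlaps Eef1b2 on the opposite strand, and the sources do not say whether reads were assigned by strand, so its level is uncertain. Ndufv1, which binds NADH and FMN, was at 144, 140 and 124 TPM in normoxia and at 118, 107 and 113 TPM in hypoxia (log2 fold change -0.27, adjusted p = 0.0146), and was not called under the median-ratio scaling (-0.12, adjusted p = 0.193). Neither gene's groups overlapped.

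The accessory subunits Ndufa2, Ndufs4 and Ndufs6 of the N module were called lower, with log2 fold changes of -0.39, -0.24 and -0.17. Ndufs4, a subunit added late in assembly and mutated in Leigh syndrome, and Ndufs6, which binds zinc, lost their calls under the median-ratio scaling (adjusted p = 0.308 and 0.735) and when single libraries were left out. Without normoxia replicate 2, normoxia replicate 3 or hypoxia replicate 1, neither was called, and Ndufs4 was also lost without hypoxia replicate 2 and Ndufs6 without hypoxia replicate 3. Ndufa6, which docks the mitochondrial acyl carrier protein, was at 257 ± 9.32 TPM in normoxia and 258 ± 3.62 TPM in hypoxia (SD, n = 3), a difference smaller than the spread between libraries, and was called higher under the median-ratio scaling (0.15, limma adjusted p = 0.0157).

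4 genes of the N and Q modules, Ndufv2, Ndufa7, Ndufs7 and Ndufa12, varied strongly between libraries of 1 group. Ndufv2, a core subunit with a iron-sulfur cluster, was at 130, 30.0 and 131 TPM in normoxia and at 89.9, 94.7 and 106 TPM in hypoxia. The low library is normoxia replicate 2, in which the locus assembled from the reads at this place held 202 TPM, against 133 and 135 TPM in the other normoxic libraries. By TPM the log2 fold change was 0.26 (limma adjusted p = 0.704), and without normoxia replicate 2 it was -0.43 (adjusted p = 0.0064).

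The deposited coverage, the mean read depth of a gene, served as a second reading. It was scaled in each library to TPM in genes with a single annotated transcript, an alternative chosen after the data were seen, and is compared only between libraries. For Ndufv2 the scaled coverage was 21.5, 21.2 and 21.6 in normoxia and 15.7, 16.2 and 17.2 in hypoxia. By this reading the 3 normoxic libraries were alike and all above the hypoxic ones (log2 fold change -0.37, limma adjusted p = 0.000362). Ndufv2 therefore differed in direction between the readings, and its positive value by TPM rested on normoxia replicate 2. Why that library differed by TPM was not tested.

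Ndufa7, an accessory N module subunit, was at 142, 206 and 133 TPM in normoxia and at 265, 265 and 123 TPM in hypoxia. The groups overlapped, and the log2 fold change was 0.38 by TPM (limma adjusted p = 0.348) and -0.10 by scaled coverage. Without hypoxia replicate 3 it was 0.75 by TPM (adjusted p = 0.0193). Ndufs7, the core subunit that holds the last iron-sulfur cluster before ubiquinone, was at 56.6, 99.3 and 104 TPM in normoxia and at 103, 99.3 and 92.5 TPM in hypoxia, with log2 fold changes of 0.23 by TPM and -0.16 by coverage, neither of them called. Ndufa12, an accessory N module subunit, was at 144, 88.6 and 71.5 TPM in normoxia and at 73.7, 57.4 and 49.9 TPM in hypoxia. Its groups overlapped by TPM (log2 fold change -0.70, adjusted p = 0.0599) and it was called lower by coverage (-0.36, adjusted p = 0.00164) and by TPM without normoxia replicate 3 (-0.91, adjusted p = 0.0243).

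Over the whole set, the 2 readings were within 0.1 on the log2 scale for 31 of the 43 members. For some of these the scaled coverage equalled the TPM in every library. They were Ndufa1, Ndufa2, Ndufa6, Ndufa8, Ndufa9, Ndufa11, Ndufa13, Ndufb3, Ndufb9, Ndufb11, Ndufs4, Ndufs8, Ndufaf2 and Ndufaf7. Agreement between the readings was fixed in advance for these members and lends their calls no weight. Of the 27 members called lower by TPM, 26 were also called lower by scaled coverage, the exception being Ndufaf5. Coverage called 31 members lower in all, beside 41.9% of all genes tested by that reading. The 5 subunits called lower by coverage and not by TPM were Ndufa3, Ndufa10, Ndufa12, Ndufb8 and Ndufv2. Ndufv3 was called higher by both, at 1.12 and 0.90.

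**Figure D3:**
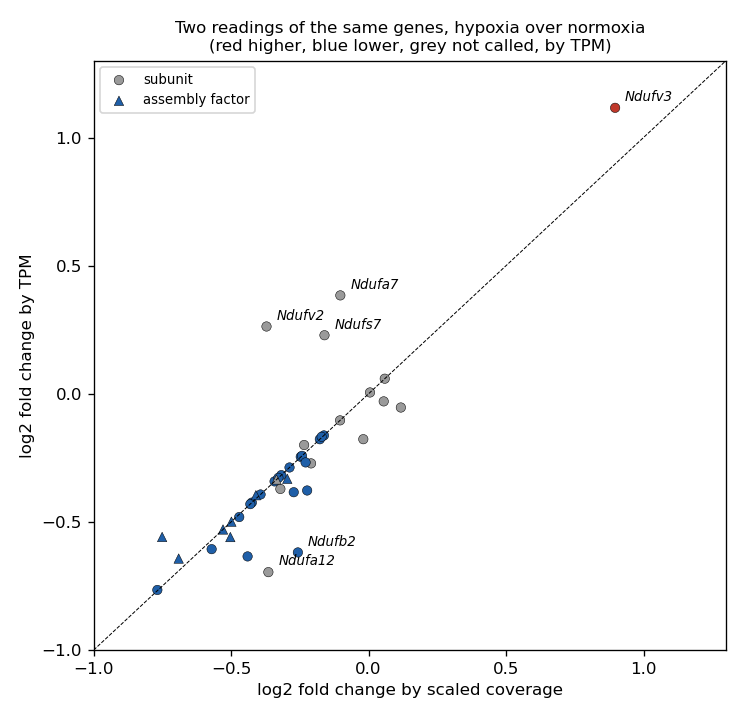
Log2 fold change of the members by TPM (vertical) against that by scaled coverage (horizontal), circles for subunits and triangles for assembly factors, coloured by the call on TPM, with the line of equality dashed and 1 subunit not drawn. Of all 43 members, 31 have values within 0.1 of each other, and those whose scaled coverage equals their TPM lie on the line by construction. Ndufv2, Ndufa7 and Ndufs7 lie above the line, positive by TPM and negative by coverage.

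In the Q module, Ndufa5 and Ndufs8 fell, or 40% of its genes, beside 36.1% of all tested genes and 40.1% of the tested protein-coding genes. Under the median-ratio scaling the share called lower was also 40%, beside 26.3%. Ndufa5, an accessory subunit, had the largest fall of all members, from 96.0, 88.4 and 85.7 TPM in normoxia to 52.2, 49.8 and 55.7 TPM in hypoxia. The groups were well apart (log2 fold change -0.77, SE 0.0644, limma adjusted p = 0.00012), although 10.5% of tested genes fell further. Ndufs8, a core subunit with a pair of iron-sulfur clusters, was at 169, 182 and 176 TPM in normoxia and at 133, 140 and 145 TPM in hypoxia (log2 fold change -0.33, adjusted p = 0.00147).

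The Q module core subunit Ndufs3 was at 69.8, 87.8 and 70.5 TPM in normoxia and at 66.7, 79.1 and 73.2 TPM in hypoxia. The groups overlapped, and the log2 fold change was -0.05 by TPM and 0.12 by coverage, called by neither reading (limma adjusted p = 0.693 and 0.138). Of the 7 nuclear core subunits 3 were called lower, with a median of -0.05, and of the 28 accessory subunits 17 were called lower and 1 higher, with a median of -0.28. Their shares called lower were 42.9% and 60.7%, beside 36.1% of all tested genes. Under the median-ratio scaling the shares were 28.6% and 32.1%, beside 26.3%. By scaled coverage the medians were alike, -0.23 for the core and -0.24 for the accessory subunits, and under the median-ratio scaling the core median was positive (0.09) and the accessory median -0.13.

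**Figure D4:**
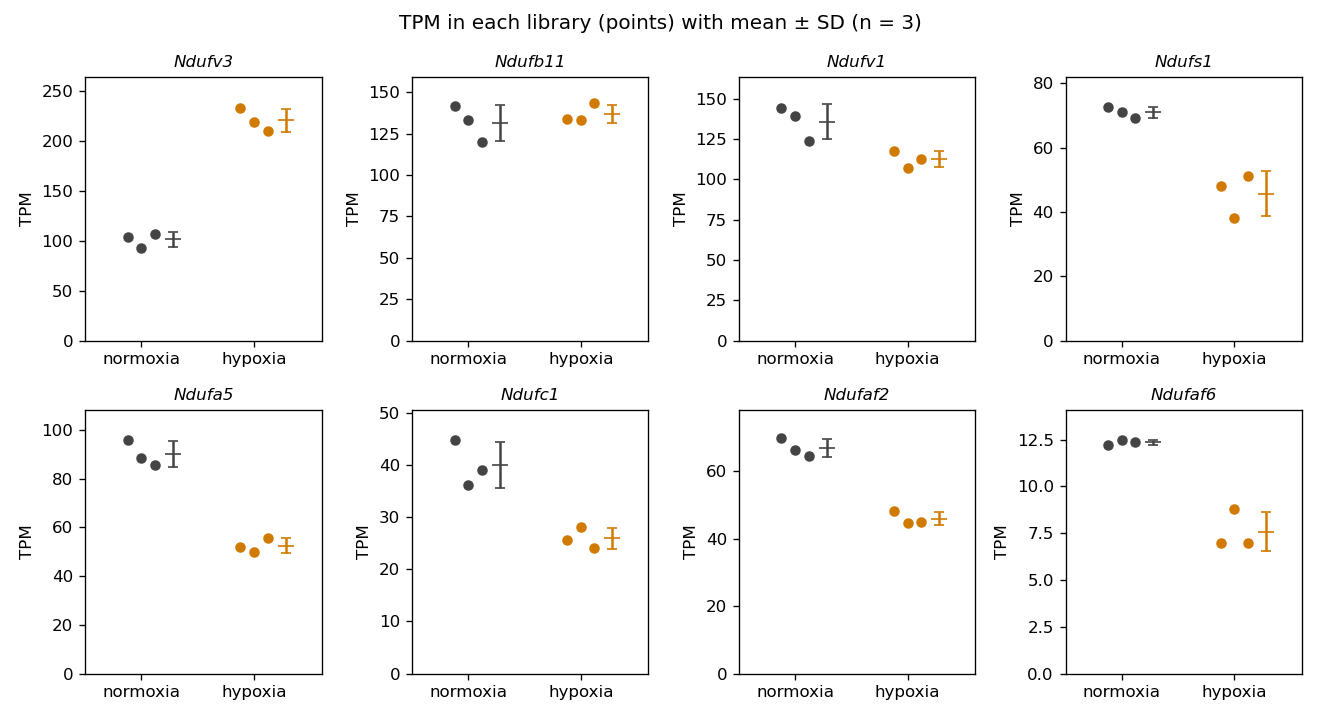
TPM in each library (points) with mean ± SD (n = 3) for 8 complex I genes in normoxia (grey) and hypoxia (orange), each axis starting at 0. Ndufv3 was higher in every hypoxic library, Ndufb11 overlapped between the groups, and the other 6 genes were lower in every hypoxic library.

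In the proximal membrane arm all 10 members had a negative fold change, as had 8442 of the 13749 tested genes. Of the 10, 7 fell (70%), beside 36.1% of all tested genes. Ndufc1, a small membrane subunit, had the largest fall there, from 44.9, 36.2 and 39.1 TPM in normoxia to 25.5, 28.1 and 24.2 TPM in hypoxia (log2 fold change -0.61, limma adjusted p = 0.00176). The groups did not overlap. Ndufa11 and Ndufa13 also fell (-0.42 and -0.34), as did Ndufs5 (-0.38), whose protein is folded in the intermembrane space. The calls of Ndufa8 and Ndufa9 were the weakest of this arm (-0.16 and -0.18, adjusted p = 0.0284 and 0.0444) and did not hold without normoxia replicate 2, normoxia replicate 3, hypoxia replicate 1 or hypoxia replicate 3, nor for Ndufa9 without normoxia replicate 1. Under the median-ratio scaling Ndufa8, Ndufa9, Ndufc2 and Ndufs5 (adjusted p = 0.798, 0.650, 0.106 and 0.0529) were not called, which left 3 lower calls in this arm and a median of -0.11 in place of -0.26. Those 3 calls were 30% of the arm, close to the 26.3% of all tested genes under that scaling. The members not called were Ndufa1, Ndufa3 and Ndufa10, at -0.10, -0.27 and -0.20, although Ndufa3 was called lower without normoxia replicate 2 or hypoxia replicate 2 (-0.37 and -0.38).

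In the distal membrane arm 6 of 10 members fell, namely Ndufb2, Ndufb3, Ndufb4, Ndufb6, Ndufb7 and Ndufb9, and the median was -0.34. The share was 60%, beside 36.1% of all tested genes. Under the median-ratio scaling Ndufb2 and Ndufb6 (adjusted p = 0.126 and 0.0562) were not called, which left 4 lower calls and a median of -0.20. Those 4 calls were 40% of the arm, beside 26.3% of all tested genes. Ndufb4 was at 57.1, 54.2 and 50.1 TPM in normoxia and at 42.4, 37.7 and 34.9 TPM in hypoxia (log2 fold change -0.48, limma adjusted p = 0.00306). Its groups were apart. Ndufb2 was at 39.1, 37.1 and 39.1 TPM in normoxia and at 27.8, 32.3 and 16.6 TPM in hypoxia (-0.62, adjusted p = 0.0489), and hypoxia replicate 3 lay well below the other hypoxic libraries. The call on Ndufb2 held without hypoxia replicate 2 or hypoxia replicate 3 and was lost without each of the other 4 libraries, and by coverage its log2 fold change was -0.26 (adjusted p = 0.0108).

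Ndufb9, the most abundant member in normoxia, was at 282 ± 8.18 TPM and fell to 231 ± 7.76 TPM in hypoxia (SD, n = 3). Ndufb11, encoded on the X chromosome, was at 142, 133 and 120 TPM in normoxia and at 134, 134 and 143 TPM in hypoxia, so the groups overlapped (log2 fold change 0.06, limma adjusted p = 0.499), and it was called higher under the median-ratio scaling (0.20). The remaining members not called were Ndufb5, Ndufb8 and Ndufb10, at -0.03, -0.37 and -0.18, and Ndufb10 was called lower without normoxia replicate 2 (-0.27, adjusted p = 0.00725). Ndufb8 overlaps Gm20538 on the same strand, so reads may be split between them and its level is uncertain. Genes on the opposite strand also overlap Ndufa2, Ndufa3, Ndufa11, Ndufb2, Ndufb5, Ndufb6, Ndufb11, Ndufs3 and Ndufs6.

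The assembly factors had lower levels than the subunits, with a median over genes of 24.8 TPM in normoxia against 101 TPM. Ndufaf2, a chaperone related in sequence to the subunit Ndufa12, was the most abundant, at 69.7, 66.2 and 64.4 TPM in normoxia and at 48.2, 44.7 and 45.0 TPM in hypoxia (log2 fold change -0.53, SE 0.0547, limma adjusted p = 0.000285). Ndufaf7, a protein methyltransferase, was at 32.5, 33.4 and 33.8 TPM in normoxia and at 24.3, 23.4 and 22.1 TPM in hypoxia (-0.50, adjusted p = 0.000455). Both genes were clearly apart between the groups.

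Ndufaf6, which acts early in assembly of the membrane arm, was at 12.2, 12.5 and 12.4 TPM in normoxia and at 6.99, 8.81 and 6.98 TPM in hypoxia, the largest fall among the assembly factors (-0.64, limma adjusted p = 0.00179). Ndufaf8, a partner of Ndufaf5, was at 45.1, 45.1 and 38.9 TPM in normoxia and at 30.5, 30.6 and 25.6 TPM in hypoxia (-0.56, adjusted p = 0.00251). Ndufaf1, a factor for the membrane arm, was at 27.8, 27.7 and 29.5 TPM in normoxia and at 18.8, 24.1 and 21.3 TPM in hypoxia (-0.40, adjusted p = 0.0106). In all of these the highest hypoxic library was below the lowest normoxic one.

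The calls on Ndufaf4 and Ndufaf5 were less secure. Ndufaf4, which works with Ndufaf3 on the Q module, was at 12.01, 9.32 and 12.2 TPM in normoxia and at 7.31, 5.60 and 9.09 TPM in hypoxia (-0.56, limma adjusted p = 0.0321), and Ndufaf5, which hydroxylates Ndufs7, was at 24.6, 19.4 and 19.98 TPM in normoxia and at 14.9, 16.6 and 18.6 TPM in hypoxia (-0.33, adjusted p = 0.0483). Their highest hypoxic library came close to their lowest normoxic one, and both calls were lost under the median-ratio scaling and without normoxia replicate 1, normoxia replicate 3, hypoxia replicate 1 or hypoxia replicate 2. Ndufaf3 was at 7.96, 8.34 and 8.46 TPM in normoxia and at 9.38, 5.65 and 4.73 TPM in hypoxia. Hypoxia replicate 1 lay above all normoxic libraries, and the gene was not called (-0.33, adjusted p = 0.222) except when that library was left out (-0.58, adjusted p = 0.00694). Ndufaf3 overlaps the more abundant Impdh2 on the opposite strand.

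Other assembly factors, which do not carry the Ndufaf symbol, were given as a separate list. Of 15 listed, 14 were in the files and tested, of which 7 fell and 1 rose, with a median of -0.30. The 7 were 50% of those tested, beside 36.1% of all tested genes. Chchd4, which imports and oxidizes cysteine-rich proteins of the intermembrane space, fell most, from 28.6, 31.6 and 30.7 TPM to 13.7, 13.7 and 12.7 TPM (-1.12, limma adjusted p = 3.05e-05). Timmdc1 (-0.68) and Acad9 (-0.53), which act in membrane arm assembly, also fell. Tmem126b, a partner of Acad9 in the same assembly complex, was the member that rose, from 18.3, 17.4 and 12.9 TPM to 22.3, 21.1 and 20.1 TPM (0.38, adjusted p = 0.0418).

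The mitochondrially encoded subunits, the partners of the nuclear core subunits, all fell (7 of 7), beside 36.1% of all tested genes. Their median log2 fold change was -1.28. The largest fall was that of mt-Nd3, from 1113, 1063 and 1015 TPM in normoxia to 205, 204 and 240 TPM in hypoxia (-2.30, limma adjusted p = 2.67e-06). The smallest was that of mt-Nd4, from 3476, 3582 and 3602 TPM to 1716, 1772 and 1769 TPM (-1.02). In every one of the 7 genes the groups were far apart compared with the spread between libraries.

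Of the others, mt-Nd1 was at 6015, 5968 and 6005 TPM in normoxia and at 1970, 2019 and 2166 TPM in hypoxia, and mt-Nd2 at 4308, 4364 and 4640 TPM and at 1357, 1445 and 1462 TPM. For mt-Nd4l the libraries held 3451, 3498 and 3580 TPM in normoxia and 1553, 1625 and 1633 TPM in hypoxia, and for mt-Nd5 2986, 2853 and 2910 TPM and 1369, 1444 and 1413 TPM. The light-strand gene mt-Nd6 was at 2504, 2496 and 2484 TPM in normoxia and at 985, 1051 and 1042 TPM in hypoxia. The sources do not say whether reads were assigned by strand, so the level of mt-Nd6 is uncertain. Together the 7 mRNAs went from 5.74 ± 0.179 times the summed TPM of the nuclear subunits to 2.52 ± 0.119 times (SD, n = 3). All mitochondrially encoded genes went from 9.27% to 5.55% of the annotated TPM, and the part of this wider difference in the complex I values was not tested.

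Nuclear subunits of the other complexes gave medians between those of all genes and the assembly factors. In complex II 3 of 4 subunits were called lower (75%, median -0.19), in complex III 8 of 9 (88.9%, -0.23) and in complex V 7 of 15 (46.7%, -0.17). None was called higher, and of all tested genes 36.1% were called lower and 17.9% higher. Under the median-ratio scaling the lower calls were 1 of 4 (25%), 2 of 9 (22.2%) and 2 of 15 (13.3%), with 1 complex II and 2 complex V subunits called higher. Of all tested genes 26.3% were then called lower and 26.2% higher, so no list's share of lower calls was above that of all genes. No test set complex I against these lists.

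Promoters were searched for the letters of motifs known from hypoxia and from mitochondrial genes, in windows from 250 bases before to 20 bases after the annotated start (RefSeq, GRCm38.p6), on both strands. Of the subunits 31 had an entry, with 33 promoters, as had 7 of the assembly factors. Those without an entry included Ndufa2, Ndufb9, Ndufs1 and Ndufaf6. The NRF1 motif GCGCANGCG was held by 8 of the 33 subunit promoters (24.2%) and 5.80% of all promoters. All promoters are 32851 entries of 27025 genes, so many belong to genes not tested here. A gene with several promoters counts more than once. The hypoxia-inducible factor core was searched as ACGTG, held by 18.2% of subunit promoters and 17.9% of all, and as GCGTG, held by 39.4% of subunit promoters and 29.9% of all. Of the 7 assembly factor promoters 1 held the NRF1 letters, 1 held ACGTG and 6 held GCGTG.

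The GABPA letters CCGGAAGT were found in 3.03% of subunit promoters against 3.52% of all promoters, and the YY1 letters AANATGGCG in 6.06% against 1.49%, and in 0 and 1 of the 7 assembly factor promoters. The NRF1 match was in the promoters of Ndufa5, Ndufb4, Ndufs5, Ndufs6, Ndufa8, Ndufa11, Ndufb10 and Ndufaf4. A match describes the letters and is not a bound site. The windows shown are those of the member that rose, of the subunit with the largest fall, of a subunit with several NRF1 matches and of the most abundant assembly factor, with the matched letters in capitals (hypoxia-inducible factor core and NRF1, either strand).

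Ndufv3 (chr17:31519865-31520134, plus strand): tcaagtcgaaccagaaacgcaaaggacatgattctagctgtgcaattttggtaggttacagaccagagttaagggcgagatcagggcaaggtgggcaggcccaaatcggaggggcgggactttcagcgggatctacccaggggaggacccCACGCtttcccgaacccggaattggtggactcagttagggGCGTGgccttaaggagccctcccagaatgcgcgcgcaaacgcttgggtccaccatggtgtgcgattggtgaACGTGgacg
Ndufa5 (chr6:24527507-24527776, minus strand): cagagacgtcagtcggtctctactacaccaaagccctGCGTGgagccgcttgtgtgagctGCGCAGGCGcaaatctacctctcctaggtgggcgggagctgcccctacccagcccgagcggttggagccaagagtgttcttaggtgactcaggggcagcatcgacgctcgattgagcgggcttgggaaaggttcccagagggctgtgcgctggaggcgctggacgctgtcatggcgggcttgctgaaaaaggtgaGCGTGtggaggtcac
Ndufb4 (chr16:37654349-37654618, minus strand): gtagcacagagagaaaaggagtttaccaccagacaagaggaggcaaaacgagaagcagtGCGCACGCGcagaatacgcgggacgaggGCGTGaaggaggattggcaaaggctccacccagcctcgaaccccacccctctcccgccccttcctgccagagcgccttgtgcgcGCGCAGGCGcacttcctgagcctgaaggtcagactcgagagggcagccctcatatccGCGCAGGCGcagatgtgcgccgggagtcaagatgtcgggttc
Ndufaf2 (chr13:108158606-108158875, minus strand): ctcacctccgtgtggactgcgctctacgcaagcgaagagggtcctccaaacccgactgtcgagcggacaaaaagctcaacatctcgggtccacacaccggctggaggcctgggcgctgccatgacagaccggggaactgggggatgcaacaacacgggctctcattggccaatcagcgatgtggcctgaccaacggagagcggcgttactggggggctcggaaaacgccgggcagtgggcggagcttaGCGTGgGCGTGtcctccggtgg

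The Ndufv3 window held both forms of the hypoxia-inducible factor core, and so did those of Ndufa3, Ndufa7, Ndufv1 and Ndufaf3. By TPM Ndufv1 was called lower, though not under the median-ratio scaling, and Ndufa3, Ndufa7 and Ndufaf3 were not called. Any link between these letters and the fold changes was not tested.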

How the data were processed

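RNA of 3 normoxic and 3 hypoxic GC-2spd samples was analysed. According to the study and the submitters' processing notes, the authors trimmed reads with cutadapt, aligned them to mm10 with HISAT2 and quantified genes with StringTie, whose versions and annotation are not given in the sources used here. The deposited signal columns are coverage, the mean read depth of a gene, and TPM. The deposited FPKM is scaled for length and depth and served as an alternative. The TPM column lists annotated genes beside assembled loci, which repeat them and sum to 1000000 per library, so only annotated genes were used, unscaled.

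Identifiers were matched to GENCODE M21 (42462 of 43432), and 20 symbols with several identifiers were summed. The study tested read counts, which the values used here are not, so limma 3.58.1 (R 4.3.3) was fitted to log2(TPM + 1) with a variance trend, 2-sided, over 13749 genes with a mean of at least 1 TPM, with Benjamini-Hochberg adjustment, and was tested on simulated data. Values in every library were given for the 6 largest and 6 smallest subunit fold changes, the core subunits, the assembly factors and the mitochondrially encoded subunits, except that 1 subunit counted among the members and 1 gene of similar pattern are not reported here by name. The alternatives were other pseudocounts, filters, scalings, a length correction, a replicate block and each library left out. The members, gene lists and tests were chosen with earlier results of these data known. Read counts are not known, so no counting interval was given.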

Additional observations from a re-analysis of the deposited data

How the results depend on the processing

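Of the 43 members and 7 mitochondrially encoded subunits, Ndufv3, 11 subunits and 4 assembly factors kept their call under all 18 alternatives run, and the mitochondrially encoded subunits under all 16 that could include them. Ndufv2 changed direction, to -0.4331 without normoxia replicate 2 and to -0.3713 by scaled coverage, from 0.26 by TPM, and without normoxia replicate 3 it was 0.6138. Median-ratio scaling gave 4 subunits higher and 11 lower, and medians of -0.1224 for subunits and -0.3715 for assembly factors. Removing the trend with transcript length gave 4 higher and 13 lower subunits, 4 lower assembly factors and medians of -0.1222 and -0.3730. Quantile normalization gave 4 lower assembly factors, medians of -0.2125 and -0.3402 and a difference between them of 0.1278. These settings also centre the libraries on all genes, whose median was -0.13 by TPM. The subunit median was -0.3154 with FPKM, and the cause was not tested. Without mitochondrially encoded genes, a setting that rescales the remaining genes of each library to the same total, it was -0.3010.

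When each library was left out in turn, 15 to 20 subunits were called lower and 1 to 2 higher (the second being Ndufa7, without hypoxia replicate 3), 5 to 7 assembly factors were called lower, the subunit median was -0.3020 to -0.2460, the assembly factor median -0.5654 to -0.4705 and the difference between them 0.2011 to 0.3131. With the replicate block, 20 subunits and 6 assembly factors were called lower, and of all tested genes 4674 lower and 2281 higher. The replicate numbers share no stated origin, and same-numbered libraries deviated together by correlations of only 0.0259, 0.0333 and 0.0109, so the numbers were not taken as pairs. Counting Ndufb4c and Ndufs6b as subunits changed no count beyond 1.5 times. With 3 libraries a group and read counts unknown, small differences may have gone uncalled.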
